A study of Arabidopsis thaliana with 8 samples.

Results

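MYB28, MYB29 and MYB76 are R2R3-MYB transcription factors of Arabidopsis thaliana that act as activators of the aliphatic glucosinolate pathway. Their rows were taken from the deposited table by locus identifier (AT5G61420, AT5G07690 and AT5G07700), which gives 3 genes of the 28496 in the table. The samples were whole Arabidopsis seedlings, 6 days old, grown in vitro on half-strength MS medium at 22 °C with an 8 h photoperiod and without stress. The labels hold TT2 OE (35S::TT2, 3 libraries), MYB5 OE (35S::MYB5, 2 libraries) and the Col-0 wild type (3 libraries). TT2 OE and MYB5 OE each overexpress an R2R3-MYB factor from the 35S promoter. The 35S promoter is active in most tissues, and although the study obtained several independent lines of each overexpressor, the sources used here do not give which of them were sequenced. The 8 libraries fell into 3 rounds, with 1 library of each genotype in rounds 1 and 2, and 1 of TT2 OE and 1 of Col-0 in round 3. The labels do not name the rounds, which were found by clustering these libraries.

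Aliphatic glucosinolates are sulfur-rich defence compounds that the plant makes from methionine. MAM enzymes first lengthen the side chain, CYP79F and CYP83A1 enzymes then build the core structure, and FMO-GSOX enzymes modify the side chain. MYB28, MYB29 and MYB76 switch these genes on together with the bHLH factors MYC2, MYC3 and MYC4, whereas MYB34, MYB51 and MYB122 are their counterparts for glucosinolates made from tryptophan. MYB28 and MYB29 are known for partly overlapping roles in Arabidopsis leaves, and MYB76 for an accessory one.

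Total counts ran from 35496351 to 48428855 per library. Each overexpressor held its transgene: TT2 stood at 466 to 516 CPM (counts scaled to library size, with TMM factors) in TT2 OE and at 0.0623 to 0.316 CPM in Col-0, and MYB5 stood at 252 and 281 CPM in MYB5 OE and at 0.0263 to 0.150 CPM in Col-0. Leaf markers (RBCS1A, CAB1, LHCB2.1, RBCS2B) summed to 37816 to 45837 CPM in TT2 OE, 40373 to 47194 CPM in MYB5 OE and 35382 to 38959 CPM in Col-0. Root markers (EXPA7, COBL9, PRP3, CASP1) summed to 77.7 to 125 CPM in TT2 OE, 92.4 to 141 CPM in MYB5 OE and 76.2 to 122 CPM in Col-0, and all 4 markers of either organ had counts in every library. Seed storage markers (CRA1, CRU3, SESA3, OLEO1) summed to at most 1.14 CPM in TT2 OE, 0.751 CPM in MYB5 OE and 0.973 CPM in Col-0. In whole seedlings, fewer cells of a type and less RNA per cell cannot be told apart.

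All 3 genes lie on chromosome 5. In the RefSeq annotation of TAIR10.1, MYB29 spans 2446669 to 2448584 on the plus strand and MYB76 spans 2450027 to 2451807 on the same strand, 1442 bases further on. MYB28 lies on the other arm, from 24689069 to 24691187 on the minus strand. Their coding sequences had the same base at 76.1% of aligned positions between MYB28 and MYB29, 74.1% between MYB28 and MYB76 and 77.5% between MYB29 and MYB76. No stretch of 50 bases in the transcript of one was found in that of another (0 of 1850 for MYB28 against MYB29, 0 of 1850 for MYB28 against MYB76, and 0 of 1682 for MYB29 against MYB76). The 250 bases before the annotated start of each gene are shown because MYB28 and MYB29 moved together between rounds and because the overexpressed factors are promoter-binding proteins. They are read 5′ to 3′ on the strand of the gene from the RefSeq TAIR10.1 genome, and capitals mark matches to the E-box, the MYB core and the AC-rich element, which are spelled out after the sequences.
MYB28 (chr5:24691188-24691437, minus strand): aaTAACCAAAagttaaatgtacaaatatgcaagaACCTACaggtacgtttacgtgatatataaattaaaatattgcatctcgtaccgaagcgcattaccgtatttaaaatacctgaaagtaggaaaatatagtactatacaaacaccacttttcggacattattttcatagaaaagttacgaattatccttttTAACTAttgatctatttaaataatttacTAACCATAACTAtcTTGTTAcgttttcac
MYB29 (chr5:2446419-2446668, plus strand): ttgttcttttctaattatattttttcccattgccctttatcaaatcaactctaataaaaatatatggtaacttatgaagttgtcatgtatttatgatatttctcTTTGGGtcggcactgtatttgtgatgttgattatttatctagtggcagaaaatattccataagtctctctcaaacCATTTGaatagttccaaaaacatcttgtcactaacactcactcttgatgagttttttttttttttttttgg
MYB76 (chr5:2449777-2450026, plus strand): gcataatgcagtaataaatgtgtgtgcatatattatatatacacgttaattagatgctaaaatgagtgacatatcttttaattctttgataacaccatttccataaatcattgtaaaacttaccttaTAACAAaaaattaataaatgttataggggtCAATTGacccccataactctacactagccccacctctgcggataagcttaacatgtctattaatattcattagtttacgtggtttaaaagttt

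These windows were searched on both strands for the letters of 8 elements, and the same windows of 20300 tested genes gave the background. The AC-rich element (ACCAAA or ACCAAC or ACCTAA or ACCTAC or CCCAAA or CCCAAC or CCCTAA or CCCTAC), one of the sites known for TT2 and MYB5, occurred 2 times in MYB28, 246 to 241 and 216 to 211 bases before the start. It occurred once in MYB29, on the minus strand 146 to 141 bases before the start, not in MYB76, and in 67.7% of all windows. The MYB core (CNGTTA or CNGTTG or TNGTTA or TNGTTG), another site known for these factors, occurred 5 times in MYB28, not in MYB29, once in MYB76, and in 87.3% of all windows. A MYB core at 248 to 243 bases before the start of MYB28 overlaps its first AC-rich element. The E-box (CANNTG), the general site of bHLH factors, occurred once in MYB29, 71 to 66 bases before the start, and once in MYB76, 93 to 88 bases before the start, not in MYB28, and in 56.3% of all windows. The presence of elements as common as these marks no gene out. How many windows hold as many as 5 MYB cores was not counted. The G-box (CACGTG), an E-box that MYC factors bind, was in none of the 3 and in 7.43% of all windows. The study proposes that TT2 and MYB5 regulate the heat shock factor gene HSFA2 through the site II element. The core of that element (TGGGC) was in none of the 3 and in 25.4% of all windows. ACCNANC, another form of AC element, was in none and in 28.5% of all. The evening element (AAATATCT) and the CCA1-binding site (AAAAATCT), elements of clock-controlled promoters, were in none of the 3 and in 4.92% and 6.74% of all windows.

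The levels of the 3 genes followed 1 order in all 8 libraries. Per kilobase of exon, MYB28 stood at 9.50 to 28.4 CPM, MYB29 at 0.122 to 1.24 CPM and MYB76 at 0 to 0.0812 CPM. The ranges of the 3 genes did not overlap. MYB28 was 22.4-fold to 97.4-fold above MYB29 per kilobase within a library, with the smallest gap in round 2, at 22.4-fold to 26.8-fold. This order was the same in 8 of 8 libraries per kilobase of coding sequence.

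**Figure D1:**
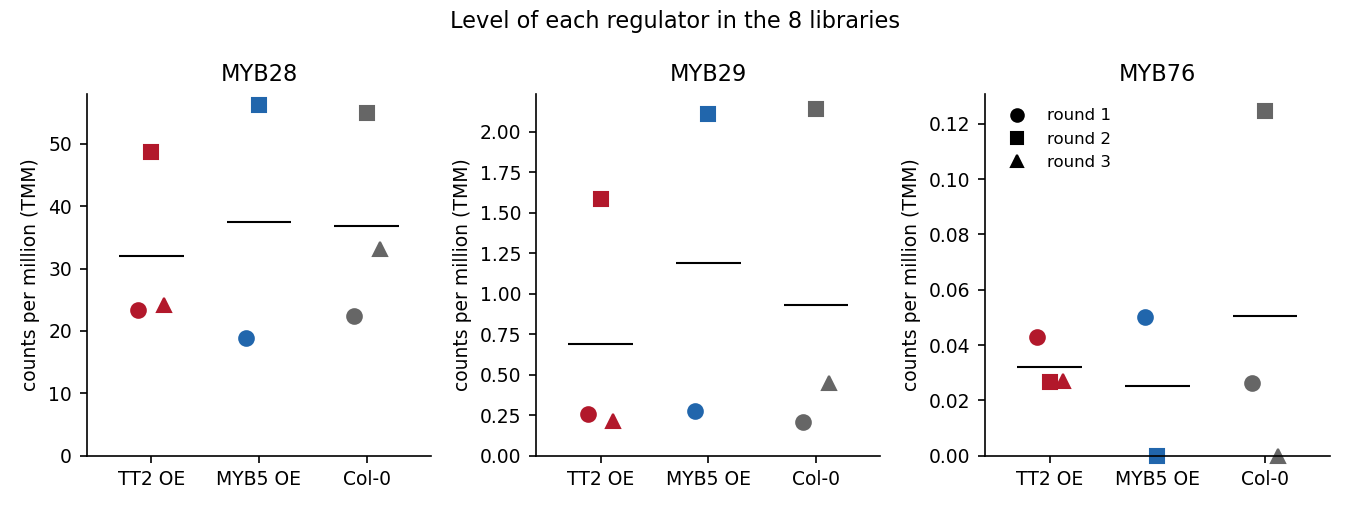
Level of MYB28, MYB29 and MYB76 in each library, in TMM-scaled CPM on a linear axis that differs between panels, for TT2 OE, MYB5 OE and Col-0. Each point is 1 library, its shape gives the round and the bar is the group mean. In every genotype the round 2 library had the highest MYB28 and MYB29, with MYB28 at 48.6 CPM or more.

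MYB28, the main activator of the pathway in Arabidopsis, was measured deeply, with 751 to 2642 counts per library. It stood at 23.3, 48.6 and 24.1 CPM in TT2 OE (rounds 1, 2 and 3), at 18.8 and 56.2 CPM in MYB5 OE (rounds 1 and 2) and at 22.5, 54.9 and 33.1 CPM in Col-0 (rounds 1, 2 and 3). The genotypes overlapped, and in each of them the round 2 library was the highest. Group means were 32.0 ± 14.4 CPM in TT2 OE (SD, n = 3), 37.5 ± 26.4 CPM in MYB5 OE (SD, n = 2) and 36.8 ± 16.5 CPM in Col-0 (SD, n = 3).

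Genotypes were compared by edgeR's quasi-likelihood test with genotype and round in the model, adjusted over all 20382 tested genes by Benjamini-Hochberg, and an adjusted p under 0.05 counted as a call. MYB28 had a log2 ratio of -0.19 in TT2 OE over Col-0 (95% interval -0.44 to 0.06, adjusted p = 0.555). In MYB5 OE over Col-0 the log2 ratio was -0.17 (95% interval -0.47 to 0.13, adjusted p = 0.814). Neither difference passed, and between TT2 OE and MYB5 OE the log2 ratio was -0.02 (adjusted p = 1). Within rounds, the TT2 OE library over the Col-0 library gave ratios of 1.04, 0.885 and 0.728 in rounds 1, 2 and 3. Their 95% counting intervals were 0.947 to 1.135, 0.834 to 0.940 and 0.670 to 0.792, which cover counting error and not the variation between plants. MYB5 OE over Col-0 gave 0.837 in round 1 (0.758 to 0.924) and 1.02 in round 2 (0.968 to 1.08). These intervals lay below 1 in rounds 2 and 3 in TT2 OE and in round 1 in MYB5 OE. 

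MYB29, which in Arabidopsis shares target genes with MYB28 and is known for a role in hormone-induced glucosinolate synthesis, was scarce, with 8 to 103 counts per library. It stood at 0.258, 1.59 and 0.217 CPM in TT2 OE (rounds 1, 2 and 3), at 0.275 and 2.11 CPM in MYB5 OE (rounds 1 and 2) and at 0.210, 2.14 and 0.449 CPM in Col-0 (rounds 1, 2 and 3). The genotypes overlapped again, and the round 2 libraries of all 3 genotypes were above every library of rounds 1 and 3. The log2 ratio was -0.43 in TT2 OE over Col-0 (95% interval -1.16 to 0.30, adjusted p = 0.661) and -0.02 in MYB5 OE over Col-0 (95% interval -0.81 to 0.77, adjusted p = 0.994). Between TT2 OE and MYB5 OE it was -0.41 (adjusted p = 1). These intervals leave room for a fall or a rise of MYB29 in either line. Within rounds the TT2 OE over Col-0 ratios were 1.23, 0.742 and 0.483, with counting intervals of 0.461 to 3.46, 0.530 to 1.03 and 0.185 to 1.13, each of which holds 1. The MYB5 OE over Col-0 ratios were 1.31 in round 1 (0.479 to 3.75) and 0.985 in round 2 (0.734 to 1.32). MYB29 was above Col-0 in round 1 in both overexpressors. It was below Col-0 in rounds 2 and 3 in TT2 OE and close to Col-0 in round 2 in MYB5 OE. Each single round was within counting error. With the rounds summed, MYB29 had 80 counts in TT2 OE and 132 in Col-0, a ratio scaled to library size of 0.665 (95% counting interval 0.497 to 0.884). In MYB5 OE it had 102 counts, a ratio of 1.24 over Col-0 (0.945 to 1.61), which sets 2 rounds against 3. The interval in TT2 OE lay below 1 but covers counting error only, and the model, which takes the spread between libraries into account, made no call.

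MYB76 was at the limit of detection. It had 2, 1 and 1 counts in TT2 OE (rounds 1, 2 and 3), 2 and 0 counts in MYB5 OE (rounds 1 and 2) and 1, 6 and 0 counts in Col-0 (rounds 1, 2 and 3). This came to 4 counts in TT2 OE, 2 in MYB5 OE and 7 in Col-0, and the gene was left out by the filter on low counts. A count of 0 allows a level of up to 0.0695 CPM in round 2 of MYB5 OE and up to 0.0641 CPM in round 3 of Col-0, from a floor of 3 counts. The ratio of summed counts, scaled to library size, was 0.627 in TT2 OE over Col-0 (95% counting interval 0.135 to 2.47) and 0.457 in MYB5 OE over Col-0 (0.0463 to 2.40). The MYB5 OE ratio sets 2 rounds against 3. Within rounds, the counting interval lay below 1 only in round 2 of MYB5 OE, with 0 counts beside 6 in Col-0 (0 to 0.947). Each other within-round interval over Col-0 held 1. With so few counts, and with counting error alone covered, a difference of MYB76 between genotypes could not be judged. Of the 7 counts in Col-0, 6 came from the round 2 library.

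Of the 2 members that could be tested, 0 were called in TT2 OE over Col-0, 0 in MYB5 OE over Col-0 and 0 in TT2 OE over MYB5 OE by edgeR, and 0 had an unadjusted p under 0.05. DESeq2 and edgeR's likelihood ratio test also called 0 in each comparison. Over all tested genes, 0.697% were called higher and 0.711% lower in TT2 OE over Col-0, 0.0736% higher and 0.0932% lower in MYB5 OE over Col-0, and 0.0638% higher and 0.108% lower in TT2 OE over MYB5 OE. Against these shares, a pair of genes with no call says little about the regulators as a group. The median log2 ratio of the tested members was -0.31 in TT2 OE and -0.09 in MYB5 OE over Col-0, beside 0.00098 and -0.003 over all tested genes.

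Round 2 stood above the other rounds for MYB28 and MYB29. The differences between rounds are given as a description, since the rounds were found from these libraries. MYB28 in round 2 was 2.09-fold its level in round 1 in TT2 OE, 2.99-fold in MYB5 OE and 2.44-fold in Col-0. MYB29 in round 2 was 6.15-fold its level in round 1 in TT2 OE, 7.65-fold in MYB5 OE and 10.2-fold in Col-0. Round 3 stood lower than round 2 in both genotypes that it holds, at 0.497-fold in TT2 OE and 0.604-fold in Col-0 for MYB28, and at 0.137-fold in TT2 OE and 0.210-fold in Col-0 for MYB29. Round 3 over round 1 was 1.04-fold in TT2 OE and 1.47-fold in Col-0 for MYB28, and 0.839-fold in TT2 OE and 2.13-fold in Col-0 for MYB29. The 3 libraries of round 2 held 48.6 to 56.2 CPM of MYB28 and 1.59 to 2.14 CPM of MYB29, and the other 5 held at most 33.1 CPM and 0.449 CPM.

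The clock gene CCA1, a MYB factor that peaks at dawn, also parted the rounds, but in another order. It stood at 5.77, 239 and 678 CPM in TT2 OE (rounds 1, 2 and 3), at 3.91 and 235 CPM in MYB5 OE (rounds 1 and 2) and at 5.21, 216 and 694 CPM in Col-0 (rounds 1, 2 and 3). CCA1 was highest in round 3, where MYB28 and MYB29 were lower than in round 2. The part of the clock in the levels of these regulators was not tested. Genotype was balanced over rounds 1 and 2, and MYB5 OE had no library in round 3.

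Among the tested genes with a mean of at least 1 CPM, those whose log2(CPM + 0.1) over the 8 libraries was most like that of MYB28 were CCP1 (AT2G34560, Pearson r = 0.994), RHM3 (AT3G14790, r = 0.994), a rhamnose synthase, and NHL1 (AT3G11660, r = 0.992). For MYB29 they were AT3G29680 (r = 0.998), TLP1 (AT1G76900, r = 0.994) and CCoAOMT1 (AT4G34050, r = 0.993), a methyltransferase of lignin synthesis. Such likeness was common, and 1316 of 18195 genes reached an r of 0.9 with MYB28 and 1130 of 18196 with MYB29. With each round centred on its mean, AT5G63060 (r = 0.9997), AT5G40470 (r = 0.996) and FBA5 (AT4G26530, r = 0.992), an aldolase, came first for MYB28. For MYB29, KUP10 (AT1G31120, r = 0.992), AT5G43680 (r = 0.992) and MAP65-2 (AT4G26760, r = 0.989), a microtubule-bundling protein, came first. After centring, 203 of 18195 genes reached an r of 0.9 with MYB28 and 147 of 18196 with MYB29. Centring also leaves fewer free values per gene than the 8 libraries. None of the 6 genes nearest to a regulator on levels was among the 6 nearest after centring.

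CYP83A1 and MAM1 served as the reference for the pathway. CYP83A1 (AT4G13770), the cytochrome P450 that oxidises the aldoximes of the aliphatic branch, stood at 0.775, 2.57 and 1.00 CPM in TT2 OE (rounds 1, 2 and 3), at 1.502 and 8.52 CPM in MYB5 OE (rounds 1 and 2) and at 0.316, 0.519 and 0.171 CPM in Col-0 (rounds 1, 2 and 3). MAM1 (AT5G23010), the synthase of the first elongation cycles, stood at 1.18, 2.91 and 0.948 CPM in TT2 OE, at 1.75 and 9.84 CPM in MYB5 OE and at 0.526, 0.374 and 0.214 CPM in Col-0, in the same order of rounds. Every overexpressor library was above every Col-0 library for both genes. The log2 ratios over Col-0 were 2.12 and 3.50 for CYP83A1 and 2.14 and 3.44 for MAM1 in TT2 OE and MYB5 OE (edgeR, adjusted p = 0.0122, 0.00321, 0.0404 and 0.0174). Both genes had few counts in Col-0, with 8 to 25 per library. With genotype alone in the model, edgeR's quasi-likelihood test gave adjusted p = 1 for each, at log2 ratios of 2.09 and 3.89 for CYP83A1 and 2.18 and 3.97 for MAM1 in TT2 OE and MYB5 OE. In that model the calls in MYB5 OE held by DESeq2 (adjusted p = 0.00796 for CYP83A1 and 0.00345 for MAM1) and by the likelihood ratio test (0.0221 and 0.00782), and those in TT2 OE held by neither. Leaving out Col-0 round 2 ended all 4 calls, with log2 ratios for CYP83A1 of 1.72 in TT2 OE (adjusted p = 0.152) and 3.05 in MYB5 OE (0.0506), and for MAM1 of 1.34 in TT2 OE (0.324) and 2.52 in MYB5 OE (0.159). Both calls in TT2 OE also ended without TT2 OE round 2, at log2 ratios of 2.30 for CYP83A1 and 2.25 for MAM1 (adjusted p = 0.0815 and 0.201), and the MYB5 OE calls without MYB5 OE round 2, at 2.77 and 2.33 (adjusted p = 0.115 and 0.219). The MAM1 call in TT2 OE ended as well without TT2 OE round 1 (2.04, adjusted p = 0.0979), Col-0 round 3 (2.16, adjusted p = 0.0726) or TT2 OE round 3 (2.16, adjusted p = 0.0746) and by DESeq2 (1.98, adjusted p = 0.113). In all of these fits both genes stayed higher in the overexpressor than in Col-0.

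**Figure D2:**
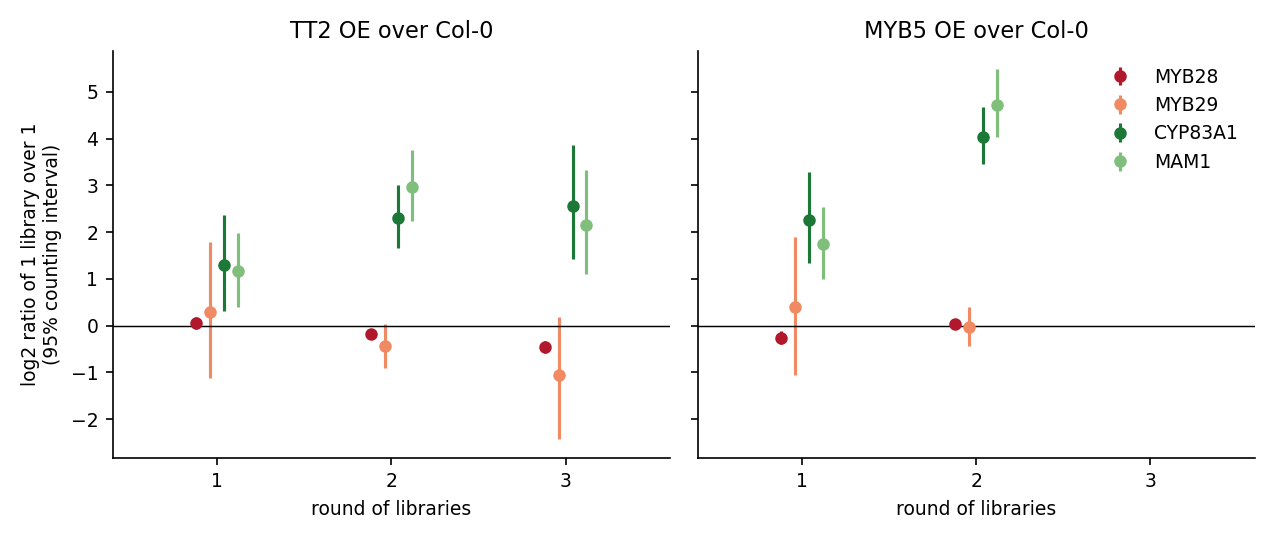
Log2 ratio of the TT2 OE library (left) or the MYB5 OE library (right) over the Col-0 library of the same round, for MYB28, MYB29, CYP83A1 and MAM1, against the round. Bars are 95% counting intervals and do not cover variation between plants. CYP83A1 and MAM1 lie at 1.17 or above in every round, and MYB28 and MYB29 lie between -1.05 and 0.39.

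The ratio of each regulator to CYP83A1 in the same library was lower in the overexpressors, where CYP83A1 itself was higher. The fitted log2 ratios of CYP83A1 over Col-0 were 2.12 in TT2 OE and 3.50 in MYB5 OE. Those of MYB28 were -0.19 and -0.17 and those of MYB29 were -0.43 and -0.02, and none of these was called. The differences given here therefore rest mainly on the enzyme genes. The log2 ratio of MYB28 over CYP83A1, with 0.1 CPM added to each, was 4.74, 4.19 and 4.46 in TT2 OE (rounds 1, 2 and 3), 3.56 and 2.71 in MYB5 OE (rounds 1 and 2) and 5.76, 6.47 and 6.94 in Col-0 (rounds 1, 2 and 3). All overexpressor libraries were below all Col-0 libraries. The mean difference from Col-0 within rounds was -1.93 ± 0.791 on the log2 scale in TT2 OE (SD, n = 3 rounds) and -2.98 ± 1.11 in MYB5 OE (SD, n = 2 rounds). Against MAM1 the differences of MYB28 were -2.01 ± 0.943 in TT2 OE and -3.09 ± 1.79 in MYB5 OE. For MYB29 the differences were -2.07 ± 1.05 and -2.15 ± 1.17 in TT2 OE, and -2.75 ± 1.52 and -2.85 ± 2.21 in MYB5 OE, against CYP83A1 and MAM1 in turn. MYB76 gave -1.84 and -1.92 in TT2 OE and -3.33 and -3.44 in MYB5 OE, values that rest mainly on the added 0.1 CPM and on the enzyme genes. The difference was below 0 in 3 of 3 rounds in TT2 OE and in 2 of 2 rounds in MYB5 OE for each of the 12 comparisons. All 12 share the same 2 enzyme genes, which were higher in the overexpressor in every round and were chosen with earlier results of these data known. The count is therefore no separate evidence on each regulator. The exact 2-sided permutation test of genotype within rounds gave p = 0.25 for each in TT2 OE and p = 0.5 for each in MYB5 OE, which are the smallest values that 3 and 2 rounds allow (adjusted p = 0.5 for all 12). This permutation test therefore could not have made a call, and its p values say nothing of these differences either way. With 1 CPM added in place of 0.1, the MYB28 and CYP83A1 difference was -1.0003 in TT2 OE and -1.89 in MYB5 OE, both nearer to 0.

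The rest of the pathway was counted from lists. Of 26 aliphatic pathway genes, 22 were tested, of which each overexpressor showed 3 that rose and 0 that fell relative to Col-0, beside 0.697% of all tested genes called higher in TT2 OE and 0.0736% in MYB5 OE. Those that rose were CYP83A1, MAM1 and CYP79F1, the P450 that starts the core pathway. The median log2 ratio of the 22 was 0.34 in TT2 OE and 0.49 in MYB5 OE. Of the 22, 15 were above 0 and 7 below in TT2 OE, and 16 above and 6 below in MYB5 OE. CYP79F1 had 5, 24 and 8 counts in TT2 OE, 3 and 70 counts in MYB5 OE and 0 counts in every Col-0 library. It passed the filter on low counts through the overexpressors alone, so among the genes that could be seen in Col-0 the count is 2, CYP83A1 and MAM1. These 2 are the reference genes, which were chosen with earlier results of these data known. The count is therefore a description and no evidence on the pathway, and edgeR called no other gene of the list. The adjusted p of CYP79F1 by edgeR was 0.0256 in TT2 OE and 0.0391 in MYB5 OE, and it was called in 10 and 11 of the 15 settings in which it was tested. With genotype alone in edgeR's quasi-likelihood test its adjusted p was 1 in both, and without Col-0 round 2 it was 0.311 in TT2 OE and 0.443 in MYB5 OE. With the Col-0 group set to a floor of 3 counts in all, TT2 OE was at least 13.5-fold higher, and at least 6.91-fold higher without its round 2 library. For MYB5 OE the bound was at least 38.9-fold higher, but 70 of its 73 counts came from round 2, and the 3 counts that are left without that library equal the floor and give no bound. In side-chain elongation, 1 of 8 tested genes rose in each line by edgeR, against 1 by DESeq2 and 2 by the likelihood ratio test in TT2 OE and 3 and 4 in MYB5 OE. Of the 8, 6 were above 0 and 2 below in TT2 OE, and 5 above and 3 below in MYB5 OE. The median log2 ratio of the 8 was 1.07 in TT2 OE and 1.73 in MYB5 OE. IPMI-SSU2, an isomerase subunit, had log2 ratios of 1.84 in TT2 OE and 2.52 in MYB5 OE (adjusted p = 0.136 and 0.109). IPMDH1, the dehydrogenase of this cycle, had 1.33 and 2.25 (adjusted p = 0.212 and 0.105), and BAT5, which carries chain-elongation intermediates into the chloroplast, had 0.86 and 1.53 (adjusted p = 0.236 and 0.104). In core synthesis, 2 of 9 rose in each line by edgeR, and DESeq2 and the likelihood ratio test each called 2 in TT2 OE and 3 in MYB5 OE. CYP79F2, the neighbour of CYP79F1, had log2 ratios of 1.36 in TT2 OE and 2.30 in MYB5 OE (adjusted p = 0.220 and 0.1004). SOT18, a sulfotransferase of the last core step, had 0.24 and 0.35 (adjusted p = 0.425 and 0.527). In side-chain modification, 0 of 5 passed in either line by edgeR, with 2 in TT2 OE and 1 in MYB5 OE at an unadjusted p under 0.05. There FMO-GSOX1, a side-chain S-oxygenase, had log2 ratios of 1.37 in TT2 OE and 2.45 in MYB5 OE (adjusted p = 0.325 and 0.138). FMO-GSOX4, the other gene under 0.05 in TT2 OE, was lower, at -0.29 in TT2 OE and -0.22 in MYB5 OE (adjusted p = 0.309 and 0.732). In each line 3 of the 5 genes were below 0, with medians of -0.05 in TT2 OE and -0.10 in MYB5 OE. By the likelihood ratio test FMO-GSOX1 was the 1 gene of this list called in MYB5 OE. CYP79F1 and CYP79F2 are close copies in tandem, so reads may be split between them.

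No other tested regulator of the pathway was called, but calls were rare among all tested genes. In TT2 OE, 0.697% of these rose and 0.711% fell relative to Col-0. For MYB5 OE the shares were 0.0736% and 0.0932%. The absence of calls in the short lists below therefore says little about them. The indole-branch factors MYB34, MYB51 and MYB122 had log2 ratios of -0.09, 0.03 and 0.27 in TT2 OE and -0.06, 0.13 and 0.34 in MYB5 OE over Col-0. The bHLH partners MYC2, MYC3 and MYC4 had 0.13, 0.12 and -0.07 in TT2 OE and 0.04, 0.08 and -0.04 in MYB5 OE, and MYC5 was not tested. Of the 3 indole factors, 3 bHLH partners and 6 other regulators tested (SLIM1, SDI1, SDI2, IQD1, OBP2 and MED25), 0 were called by edgeR, 0 had an unadjusted p under 0.05 in either line, and DESeq2 and the likelihood ratio test called 0. The same edgeR test called 0 of 7 indole synthesis genes (1 at an unadjusted p under 0.05 in TT2 OE and 0 in MYB5 OE) and 0 of 3 glucosinolate transporters (0 in TT2 OE and 1 in MYB5 OE). Between rounds, MYB34 stood at 22.7 to 24.2 CPM in round 1 and at 42.9 to 47.8 CPM in rounds 2 and 3, and MYC4 at 18.6 to 21.3, 30.1 to 36.1 and 59.4 to 59.8 CPM in rounds 1, 2 and 3. IQD1, a calmodulin-binding regulator, was highest in round 2, as MYB28 and MYB29 were, at 8.26 to 9.29, 17.4 to 20.96 and 8.40 to 8.53 CPM in rounds 1, 2 and 3. MYB51 and MYB122 had their highest round means in round 2 too, at 10.4, 14.02 and 12.3 CPM and at 0.885, 1.70 and 1.49 CPM, with ranges that overlapped those of round 3.

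**Figure D3:**
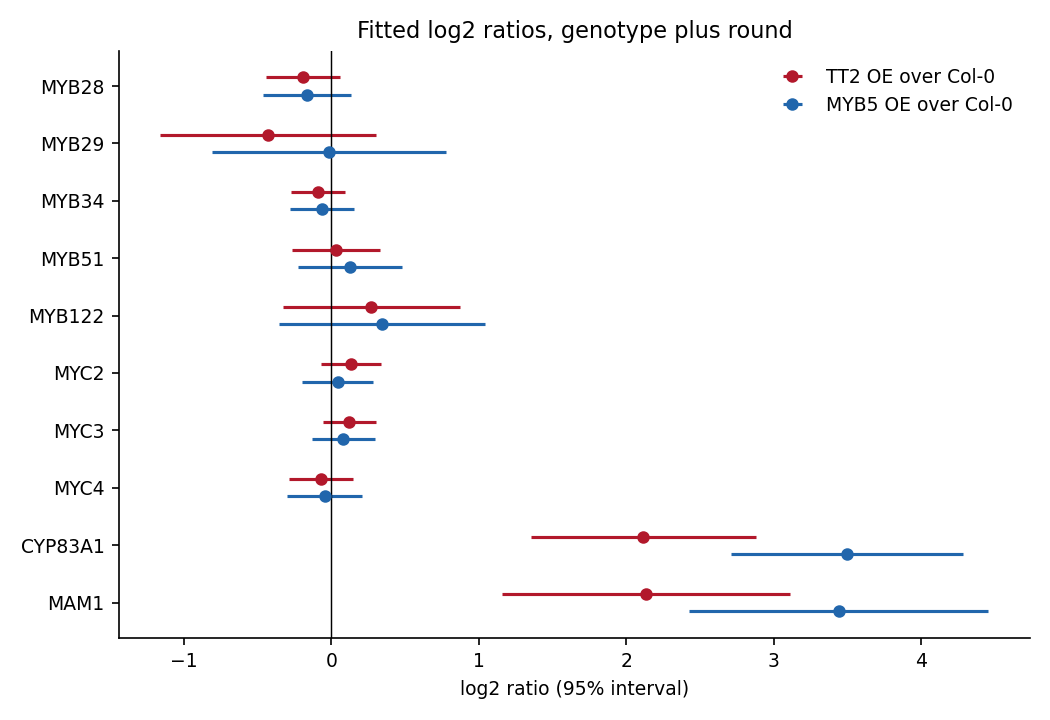
Log2 ratios over Col-0 for the glucosinolate regulators and the reference enzymes CYP83A1 and MAM1, from the model with genotype and round, with 95% intervals, for TT2 OE (upper point of each pair) and MYB5 OE (lower point). The intervals of all 8 regulators hold 0 in both lines, and those of CYP83A1 and MAM1 lie above 0. MYB76 was not tested.

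MYB29 and MYB76 lie in a stretch of chromosome 5, from AT5G06000 to AT5G10000, that was picked out in these libraries because its genes were lower in both overexpressors, so its counts are a description. Of 312 tested genes there, 242 (77.6%) had a log2 ratio below 0 in TT2 OE over Col-0 and 253 (81.1%) in MYB5 OE over Col-0, beside 49.4% and 50.2% of the 20070 other tested genes. In TT2 OE 63 of the 312 fell and 0 rose, and in MYB5 OE 7 fell and 0 rose. Of the 20070 other tested genes, 82 fell and 142 rose in TT2 OE, and 12 fell and 15 rose in MYB5 OE. Both lines were compared with the same Col-0 libraries. The median log2 ratio of the stretch was -0.31 in TT2 OE and -0.32 in MYB5 OE. MYB29, at -0.43 in TT2 OE, had 95 of the 312 genes below it, and at -0.02 in MYB5 OE it had 247 below it. Between TT2 OE and MYB5 OE the stretch had a median of 0.00 and 0 genes were called.

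The 5 tested genes on each side of the MYB29 and MYB76 pair were followed one by one. In TT2 OE over Col-0, 8 of these 10 had a log2 ratio below 0, with a median of -0.55, and 2 fell. The ones that fell were NAC080 (AT5G07680), a NAC transcription factor gene directly before MYB29 (log2 ratio -0.73, SE 0.11, adjusted p = 0.00722), and AT5G07740 (-0.48, SE 0.09, adjusted p = 0.0233). Another 3, SMC6A (AT5G07660), AT5G07710 and AT5G07730, had log2 ratios of -0.84, -0.61 and -0.85 in TT2 OE (adjusted p = 0.0507, 0.0615 and 0.115). In MYB5 OE over Col-0, 9 of the 10 were below 0, with a median of -0.64, and by edgeR 0 passed. Over all tested genes, 0.711% were called lower in TT2 OE and 0.0932% in MYB5 OE, so 0 of 10 in MYB5 OE says little. AT5G07640, AT5G07650, AT5G07670, XXT3 (AT5G07720) and AT5G07760 had 0.07, -0.63, -0.37, -0.50 and 1.01 in TT2 OE and -0.69, -0.33, -0.41, -0.61 and 0.58 in MYB5 OE. The standard error of MYB29 was 0.34 in TT2 OE and 0.36 in MYB5 OE, so that the median of its neighbours lay inside its 95% interval in both lines. Within 60 tested genes on each side of MYB29, a width chosen after the values were seen, 114 of 120 genes were below 0 in TT2 OE (median -0.40) and 113 of 120 in MYB5 OE (median -0.43). In the rest of the stretch the count was 127 of 191 in TT2 OE (median -0.15) and 139 of 191 in MYB5 OE (median -0.20). That rest was mixed. After MYB29 most genes were still below 0 out to AT5G09580, 139 tested genes on, at -0.47 in both lines. Further out on either side, log2 ratios lay both above and below 0. The width of 60 genes is therefore not an edge of the lower values, and MYB29 is not their centre. Whether the level of MYB29 shares what lowered its neighbours was not tested.

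**Figure D4:**
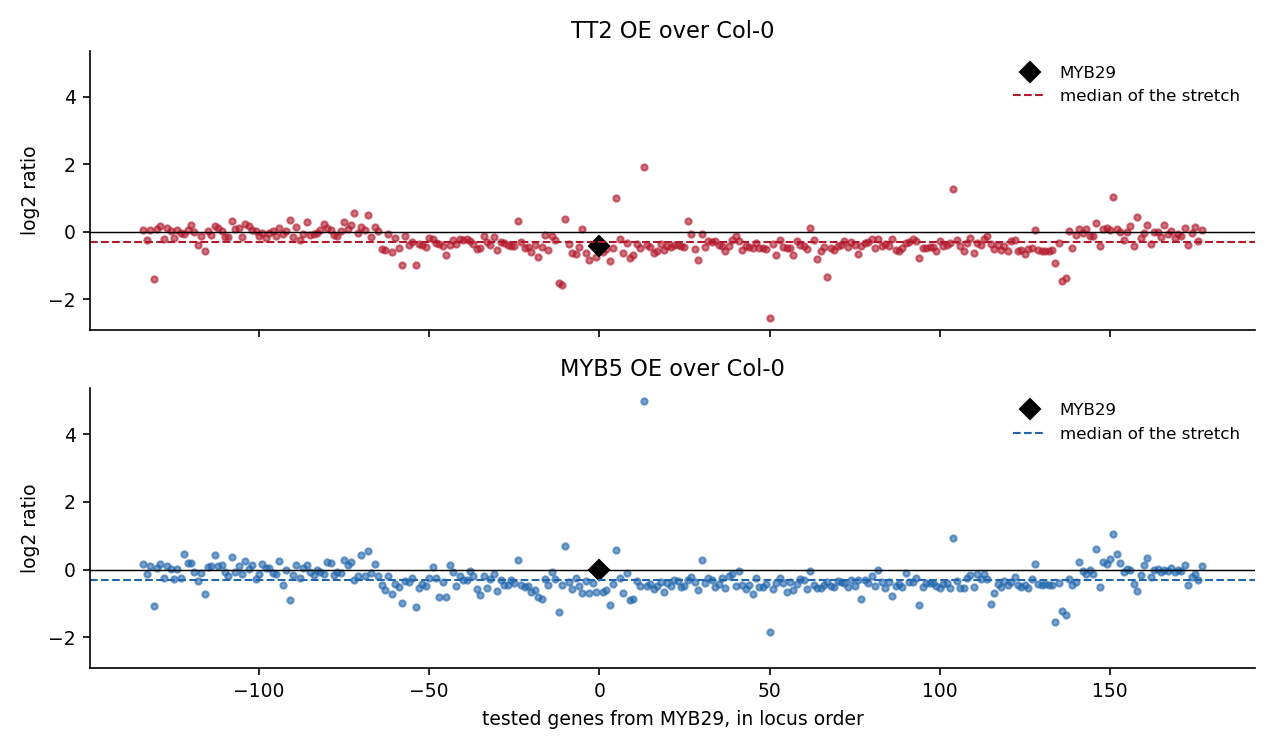
Log2 ratio over Col-0 of each tested gene from AT5G06000 to AT5G10000, in locus order and counted from MYB29, in TT2 OE (top) and MYB5 OE (bottom). Points are genes, the black diamond is MYB29 and the dashed line is the median of the stretch. Genes around MYB29 sit mostly below 0, with MYB29 at -0.43 in TT2 OE and at -0.02 in MYB5 OE.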

How the data were processed

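The authors mapped reads of NEBNext Ultra Directional libraries with CLC Genomics Workbench, and the submitters' notes give TAIR10 as the genome. The deposited table holds, for 28496 genes, whole-number counts of reads per gene, which were used as deposited. Its 24 columns of normalized values were not used, nor were 4 columns of a library that matches no sample here. Levels between genes were set per kilobase of exon (RefSeq TAIR10.1), in place of deposited length-scaled values. Groups follow the labels (TT2 OE 3, MYB5 OE 2 and Col-0 3 libraries). The study describes 3 independent biological replicates, whereas the labels hold 2 libraries of MYB5 OE. The labels name no round, and rounds were taken from a clustering of these libraries into 3 sets, within which residuals after genotype correlated by at least 0.755, and between which by at most 0.260. The round was a term in the model, and the common dispersion was 0.0107 with it and 0.130 without it. Because the rounds were found from these same libraries, the correlations and the lower dispersion follow in part from that choice. They are no separate evidence for the round term.

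Genes were filtered by edgeR's filterByExpr by genotype, which left 20382. The quasi-likelihood test of edgeR (4.0.16, run in R 4.3.3) was used with TMM factors and all 8 libraries, at an adjusted p under 0.05. The fit was tested on simulated data, where unchanged genes took a larger share of its calls than the threshold allows, so the calls may be too many. The 3 genes and the lists were chosen with earlier results of these data known, and so was the stretch of chromosome 5. Regulators were set against CYP83A1 and MAM1 with 0.1 CPM added, by an exact permutation within rounds (scipy 1.17.1). Named genes were the 3 regulators, CYP83A1 and MAM1, every MYB and bHLH regulator on the lists, up to 4 genes of each other list with the smallest p, the 5 tested genes on each side of the MYB29 and MYB76 pair, and the 3 genes most like a regulator. CCA1, the transgenes and the tissue markers were added as checks. Counting intervals and floors (3 counts) take each read as a separate molecule, which libraries made without molecular identifiers cannot ensure, and cover counting error only. Libraries of each pair differed by more than sampling noise. Alternatives tried were DESeq2 1.42.0, relative log expression factors, no filter on low counts, the likelihood ratio test, genotype alone, the compared genotypes alone, each library left out, other pseudocounts and another length. DESeq2 and the likelihood ratio test with genotype alone were added after the data had been seen.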

Additional observations from a re-analysis of the deposited data

How the results depend on the processing

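MYB28 and MYB29 were called in none of the 17 settings in any comparison, and their log2 ratios in TT2 OE over Col-0 stayed below 0 in all of them (MYB28 from -0.34 to -0.06 and MYB29 from -0.57 to -0.24, with adjusted p from 0.260 and 0.628 upwards). Signs near 0 turned elsewhere. In MYB5 OE over Col-0, leaving out 1 library gave from -0.37 to 0.0231 for MYB28 and from -0.18 to 0.0707 for MYB29, and in TT2 OE over MYB5 OE from -0.22 to 0.19 for MYB28. With the compared genotypes alone, MYB29 in MYB5 OE over Col-0 was 0.0920 and MYB28 in TT2 OE over MYB5 OE was 0.0342, and DESeq2 gave MYB29 in MYB5 OE 0.0017. With genotype alone and no replicate block, MYB28 in MYB5 OE over Col-0 was 0.0255 (0.0471 by DESeq2 and 0.0255 by the likelihood ratio test) and MYB29 was 0.34 (0.38 and 0.35). Without the filter, MYB76 had adjusted p of 0.928 in TT2 OE and 0.927 in MYB5 OE over Col-0 and 1 between the lines.

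The numbers of genes called over the whole table moved widely, in TT2 OE over Col-0, MYB5 OE over Col-0 and TT2 OE over MYB5 OE in turn: 287, 34 and 35 as reported, 441, 147 and 64 by DESeq2, 765, 297 and 111 by the likelihood ratio test, and 442, 101 and 53 without the filter. With the compared genotypes alone they were 396, 144 and 93. Leaving out 1 library gave 55 to 427, 3 to 80 and 14 to 49. With genotype alone and no replicate block they were 2, 1 and 3, and 30, 13 and 21 by DESeq2 and 27, 8 and 19 by the likelihood ratio test in that model. The cause was not tested. Leaving out libraries also lowers the power of a fit. The differences of the regulators from CYP83A1 and MAM1 stayed below 0 with 0.01 or 1 CPM added, without each round and with rounds ignored, but their size moved. Against CYP83A1 they ran from -2.38 to -1.0003 for MYB28, from -2.67 to -0.97 for MYB29 and from -2.31 to -0.84 for MYB76 in TT2 OE, and from -3.77 to -1.89, from -3.82 to -1.67 and from -4.97 to -1.70 in MYB5 OE. Against MAM1 they ran from -2.52 to -1.09, from -2.80 to -1.06 and from -2.45 to -0.93 in TT2 OE, and from -4.36 to -1.82, from -4.41 to -1.29 and from -5.56 to -1.32 in MYB5 OE. In TT2 OE the smallest of each came with 1 CPM added. Depth limits MYB76 throughout and MYB29 in rounds 1 and 3, with 8 to 21 counts a library.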
